A study of Mus musculus with 6 samples.

Results

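The centromere-proximal ends of the mouse autosomes were examined in replication timing profiles of proliferating myeloid cells. They were defined as the windows that start below 8 Mb on an autosome, and were set against the remaining windows of the same chromosome. This gave 8287 windows on 19 autosomes, which is 3.70% of the 224054 autosomal windows. Mouse autosomes are telocentric, and the assembled sequence of each begins at or after 3 Mb, so an end covers about 5 Mb. The rule uses position and no measured value. The series held 3 samples of genotype Recql4-/- Klhdc3-/- and 3 WT samples, all of them myeloid cells immortalised by HoxB8 and kept in GM-CSF, with a division time of 15 to 18 hours and over 25% of cells in S phase, per the labels. Recql4 encodes a RecQ helicase that acts at the start of DNA replication, and Klhdc3 a substrate receptor of a ubiquitin ligase. The sources used here do not say whether the samples of a genotype were separate clones. The 6 columns of values carry no names, so they are called profiles A to F, no genotype is given to any of them, and no comparison of genotypes was made.

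Replication timing is the order in which stretches of the genome are copied during S phase. In a growing culture early stretches are present in more copies than late ones, so sequencing depth along the chromosome follows this order. Gene-rich, open chromatin tends to be copied early and gene-poor or silent chromatin late. The satellite repeats next to mouse centromeres form constitutive heterochromatin that is copied in the later part of S phase, but they lie outside the assembled sequence, and the windows examined here begin beyond them. For each window there was a raw copy level, near 2 on the autosomes, and a smoothed timing score, scaled in each profile so that its autosomal windows average 0 and have an SD of 1. A higher score means earlier replication, and scores are given in these SD units. Per the labels, each sample was to be sequenced to 30-fold coverage with 150-bp reads. The sources used here do not give the depth reached, and no counting interval is shown. Windows share their library and their neighbours and are not replicates, and the profiles belong to no known group, so values are given per profile or as a median with its range and no p-value was computed.

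Several profiles stood apart over long parts of a chromosome or over all of it, which bears on the values below. Profile E was low over the end of chromosome 3, profile D was high over much of the rest of chromosome 17, profile F was higher than the others in the rest of chromosome 4, and chromosome 12 was valued in profiles A, B, C and F only, with F high over its whole length. Chromosome 19 held no value in any profile, so its 461 proximal windows entered no result. Of the 8287 windows, 7565 were valued in all profiles of their chromosome and 7094 in all 6 profiles.

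The genes at the extremes of the ends differed in the sequence at their starts. Shown are the promoters of the genes nearest to the earliest and latest proximal bins that had a sequence, and of Ghr, which lies in a stretch of chromosome 15 where the profiles part. Each is 300 bases from RefSeq on GRCm38.p6, the assembly of mm10, read along the gene. Those of Scaf8, Zfp804b, Ddi1 and Ghr run from 250 bases before to 50 after the annotated start of the gene. The stretch printed for Hmox2 (4741363 to 4741662) lies inside the gene, whose annotated span begins at 4726361. Capitals mark each CG dinucleotide, which reads the same on both strands.
Scaf8: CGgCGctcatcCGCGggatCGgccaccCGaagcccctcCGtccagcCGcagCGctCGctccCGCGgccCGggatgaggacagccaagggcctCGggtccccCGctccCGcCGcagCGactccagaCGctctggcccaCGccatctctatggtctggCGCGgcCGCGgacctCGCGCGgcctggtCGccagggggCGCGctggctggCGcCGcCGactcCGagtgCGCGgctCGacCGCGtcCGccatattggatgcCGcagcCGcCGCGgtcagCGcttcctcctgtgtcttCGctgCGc
Hmox2: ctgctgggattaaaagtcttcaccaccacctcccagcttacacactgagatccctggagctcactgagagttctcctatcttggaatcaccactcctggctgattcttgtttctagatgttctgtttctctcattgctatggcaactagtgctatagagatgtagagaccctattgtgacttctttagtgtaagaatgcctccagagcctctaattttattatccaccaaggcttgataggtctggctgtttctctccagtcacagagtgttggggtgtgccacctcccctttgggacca
Zfp804b: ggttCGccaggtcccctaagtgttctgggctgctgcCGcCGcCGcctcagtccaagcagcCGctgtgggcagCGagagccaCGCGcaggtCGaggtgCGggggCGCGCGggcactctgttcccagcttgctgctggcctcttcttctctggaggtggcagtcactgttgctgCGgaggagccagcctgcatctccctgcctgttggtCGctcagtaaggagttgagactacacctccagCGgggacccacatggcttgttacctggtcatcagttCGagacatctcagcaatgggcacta
Ddi1: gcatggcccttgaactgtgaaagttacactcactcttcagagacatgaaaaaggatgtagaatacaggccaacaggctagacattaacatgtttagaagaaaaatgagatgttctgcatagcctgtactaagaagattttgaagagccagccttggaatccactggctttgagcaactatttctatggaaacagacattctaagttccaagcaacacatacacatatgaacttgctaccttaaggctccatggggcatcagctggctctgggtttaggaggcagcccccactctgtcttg
Ghr: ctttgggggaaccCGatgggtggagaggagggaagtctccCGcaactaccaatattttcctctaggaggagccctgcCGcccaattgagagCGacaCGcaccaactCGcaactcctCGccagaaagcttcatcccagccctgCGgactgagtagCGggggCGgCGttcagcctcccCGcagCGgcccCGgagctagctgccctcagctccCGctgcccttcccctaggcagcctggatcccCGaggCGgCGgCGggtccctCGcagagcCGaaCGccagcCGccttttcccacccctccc

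The Scaf8 promoter (chr17:3114722-3115021, plus strand) held 47 CG dinucleotides and the Hmox2 stretch (chr16:4741363-4741662, plus strand) held 0. Scaf8 and Hmox2 were each the gene nearest to the earliest bin of its end that overlaps a coding gene. The Hmox2 stretch lies past the start of the gene at 4726361, so its 0 does not describe that start. The earliest bin of the chromosome 17 end itself (2.77) lies before Scaf8, whose bin scored 2.13. The Zfp804b promoter (chr5:7344329-7344628, minus strand) held 17 and the Ddi1 promoter (chr9:6266498-6266797, minus strand) held 0, and both genes lay in late bins. The Ghr promoter (chr15:3583303-3583602, minus strand) held 23. Zfp804b and Ddi1 thus differed although both were late, and so few promoters cannot show whether CG content follows timing. Over all 27025 mouse promoters outside chromosome 18, 94.2% held at least 1 CG and 44.0% held at least 10. Among proximal genes that scored like the earliest 20% of autosomal bins, 178 of 217 had a promoter sequence, with a median of 17 CG dinucleotides, against 18 for equally early genes elsewhere. Proximal genes of intermediate timing had a median of 10 (263 of 312 matched). Among the 21 proximal genes in the latest 20%, only 14 had a sequence, which is 66.7% and too few for a comparison.

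The proximal ends had no common timing. On 6 autosomes (1, 3, 5, 8, 9 and 13) the end replicated later than the rest of the chromosome in every profile, and on 8 (2, 6, 10, 11, 12, 15, 16 and 18) it replicated earlier in every profile valued there. On the other 4 (4, 7, 14 and 17) the profiles disagreed in sign. The raw copy level gave the same classes on all of these chromosomes, 6 later, 8 earlier and 4 mixed. Over the 16 autosomes with 6 profiles and without chromosome 14, the mean score of the end ran from -1.22 on chromosome 3 to 0.93 on chromosome 11, with an SD of 0.554 over chromosomes. The median range of the difference among profiles on those chromosomes was 0.146 (lowest 0.0599, highest 1.41).

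**Figure D1:**
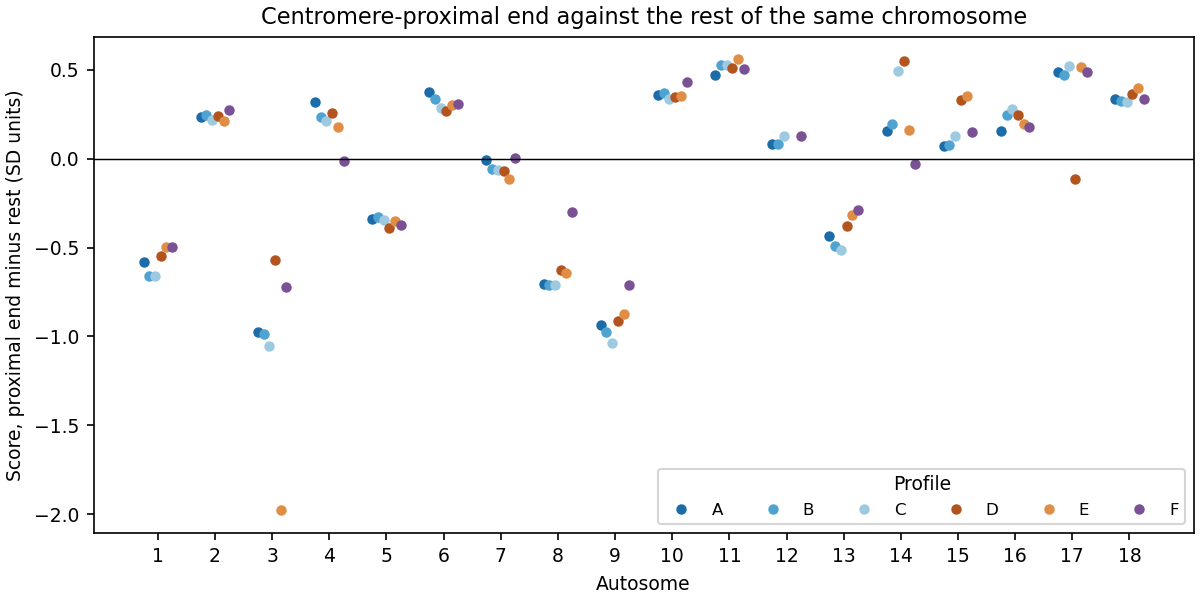
Mean timing score of the proximal end minus that of the rest of the same chromosome, in SD units, for each valued autosome, with 1 point for each profile (4 profiles on chromosome 12). Chromosomes 3 and 9 lie lowest and chromosome 11 high with tight points, while profile E on chromosome 3 and profile D on chromosome 17 sit far from the other profiles of their chromosome.

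Relative to the rest of their chromosome, the latest ends were those of chromosomes 3 and 9. By mean score alone, the end of chromosome 1 (-0.74) lay below that of chromosome 9 (-0.70). On chromosome 9 the difference between end and rest was -0.93, -0.98, -1.04, -0.91, -0.88 and -0.71 in profiles A to F, and the raw copy level of the end was 1.86 to 1.88, against 1.99 to 2.01 in the rest. On chromosome 3 it was -0.97, -0.98, -1.06, -0.57, -1.98 and -0.72, so that all profiles lay below 0 and profile E lay well below the others. On chromosome 8 it was -0.70, -0.71, -0.71, -0.62, -0.65 and -0.30, with F closest to 0. Chromosome 1 gave -0.58, -0.66, -0.66, -0.55, -0.50 and -0.49, chromosome 13 gave -0.52 to -0.29 and chromosome 5 gave -0.39 to -0.33. The late class on chromosome 3 depends on where the rest is measured. Set against only the windows from 8 to 40 Mb, profile D gave 0.19, with its own rest at -1.27 there. That rest stood at -2.11 in profile E and at -0.43 to -0.39 in profiles A, B, C and F.

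The ends of these 6 autosomes held 7 to 40 coding genes each. Hnf4g, a nuclear receptor of gut and kidney epithelium (chromosome 3, 3508030 to 3659800, mm10), scored -1.83, -1.83, -1.90, -1.58, -3.04 and -1.72 in profiles A to F. Xkr4 (chromosome 1, 3199733 to 3671948), of the XK-related family of membrane proteins, scored -1.27 (range -1.40 to -1.14). Ddi1 (chromosome 9, 6265028 to 6266547) scored -1.33 (-1.47 to -1.11), and Slc10a2, the ileal bile acid transporter (chromosome 8, 5083219 to 5105287), scored -1.17 (-1.31 to -0.99). Zfp804b, a zinc finger gene (chromosome 5, 6769030 to 7344378), scored -1.62 (-1.74 to -1.50). The same ends also held early genes: Ankib1, a ubiquitin ligase gene of the chromosome 5 end, scored 1.44 (1.12 to 1.53), and Cdk6, the first coding gene there and a kinase of the G1 phase, scored 1.12 (0.96 to 1.29).

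On chromosome 8 the genes and the windows gave opposite pictures. The end averaged -0.66 over its windows, while its 40 coding genes had a median score of 0.69. All 40 lay in the first 2.5 Mb from the first window, none in the second 2.5 Mb. Insr, the insulin receptor gene (3150922 to 3279649), scored 1.04 (range 1.02 to 1.21). Timing fell along this end to -1.32 in the step from 2 to 2.5 Mb, against -0.38 in the step before it, and stayed between -1.52 and -1.29 to its far side. On chromosome 9 the order was turned round: the 18 genes beyond 2.5 Mb had a median of 0.77, against -0.89 for the 10 before it. Mmp3, a matrix metalloproteinase gene (7445822 to 7455975), scored 0.92 (0.73 to 1.07) in the earliest bin there, and Alkbh8, a tRNA-modifying enzyme gene near the start, scored -0.54 (-0.58 to -0.48).

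The earliest end was that of chromosome 11. Its difference to the rest of the chromosome was 0.47, 0.53, 0.53, 0.51, 0.56 and 0.51 in profiles A to F, and its raw copy level was 2.09 to 2.11, against 2.02 to 2.04. The 6 profiles lay close together, and the median score of each 500-kb step stayed above 1 from the first window to 3.5 Mb, with profile F at 0.93 in the second step. Its 82 coding genes had a median score of 1.37. Sfi1, which encodes a centrin-binding protein of the centrosome (3131850 to 3203347), scored 1.71 (1.42 to 2.02), and Drg1, a GTPase gene nearby (3249907 to 3266464), scored 1.64 (1.38 to 1.91). No window that starts inside Sfi1 was valued in all 6 profiles, so its score is that of the first valued window beyond the gene. Beyond 4 Mb timing turned late, with -0.57 in the step from 4 to 4.5 Mb against 0.52 in the step before it, and Igfbp3, an insulin-like growth factor binding protein gene, scored -0.37 (-0.48 to -0.08).

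The other early ends differed from the rest by less. Chromosome 10 gave 0.36, 0.37, 0.34, 0.35, 0.35 and 0.43, chromosome 18 gave 0.32 to 0.40 and chromosome 6 gave 0.27 to 0.38. Chromosome 2 gave 0.24, 0.25, 0.22, 0.24, 0.21 and 0.27, chromosome 16 gave 0.16 to 0.28 and chromosome 15 gave 0.07 to 0.35. Chromosome 12 gave 0.08, 0.08, 0.13 and 0.13 in A, B, C and F, although its end scored 1.51 in profile F and -0.08 to 0.32 in the others. The rest of chromosome 12 in F was raised with it, at 1.38. Chromosomes 2, 6, 12 and 16 changed direction under some other definitions of the end or the rest, given with the dependence on processing.

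Chromosome 16 was early near its start and late further in. Its first 2 Mb scored between 1.16 and 1.70 by steps, and the last 1 Mb scored between -1.20 and -1.16. Of its 42 genes, 41 lay in the first 2.5 Mb, with a median of 1.46, and the other was Rbfox1, a large gene of a neuronal splicing factor (5884793 to 7412480), at -0.88 (-0.998 to -0.702). Hmox2, the constitutive haem oxygenase (4726361 to 4766742), scored 1.75, 1.73, 1.75, 1.72, 1.77 and 1.60 in profiles A to F. Olfr161, an olfactory receptor gene and the first coding gene of the end, scored 1.24 (0.87 to 1.39). On chromosome 18, Map3k8, a kinase of inflammatory signalling in myeloid cells, scored 1.23 (1.15 to 1.33) and Wac scored -0.45 (-0.56 to -0.25). On chromosome 2, Cdnf, a neurotrophic factor gene (3513065 to 3526376), scored 1.45 (1.35 to 1.56).

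On the 4 mixed autosomes a profile or the number of valued windows bore on the sign. On chromosome 17 the difference was 0.49, 0.47, 0.52, -0.11, 0.51 and 0.49 in profiles A to F. The end itself scored 0.53 in profile D, inside the range of the others (0.37 to 0.53), whereas the rest of the chromosome scored 0.64 in D, against -0.12 to 0.02 in the others. Set against the windows from 8 to 40 Mb, the 6 profiles gave 0.18, 0.19, 0.25, 0.23, 0.23 and 0.18, all above 0. On chromosome 4 the difference was 0.32, 0.23, 0.21, 0.26, 0.18 and -0.01, and against the windows from 8 to 40 Mb it was 0.64 to 0.89, above 0 in all 6. These limits were chosen after the values were seen. On chromosome 7 the difference lay between -0.11 and 0.00. By mean score that end did not differ from the rest by more than the profiles differed among themselves. The median difference over profiles there was -0.364 with medians over windows, -0.445 with a limit of 13 Mb and 0.158 with a limit of 6 Mb. The end of chromosome 4 held Lyn, a Src family kinase gene of myeloid and B cells (3678068 to 3791612), at 1.44, 1.52, 1.49, 1.41, 1.29 and 1.32.

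Chromosome 14 could hardly be measured at its proximal end. Only 30 of its 111 windows were valued, which is 27.0%, and all of them lay more than 4.5 Mb from the first window. Windows there averaged 45115 bp in width and the widest spanned 442925 bp. The end held 80 coding genes, of which 5 could be scored. Gm45521 scored 0.18 (-0.05 to 0.35) and Gm10044 scored -0.15 (-0.55 to 0.24). The difference to the rest was 0.15, 0.20, 0.49, 0.55, 0.16 and -0.03, and it describes only this last stretch.

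Every end but that of chromosome 1 held bins with a median score above 0 and bins below it. The median span between the earliest and the latest 100-kb bin of an end was 2.56 (17 chromosomes), with the narrowest span on chromosome 15 (1.10) and the widest on chromosome 17 (3.63). Averaged in steps of 500 kb from the first window, the median over 16 chromosomes was 0.16, 0.40, 0.45, -0.03, 0.10, -0.30, -0.03, -0.18, -0.54 and, over 15 chromosomes, -0.74 in the last step. The first 1.5 Mb was thus earlier than the last 1 Mb in the median, but the range over chromosomes stayed wide throughout, from -1.41 to 1.45 in the first step and from -1.38 to 0.85 in the last. The largest changes between neighbouring steps were those of chromosome 17 (-1.84), chromosome 12 (-1.40), chromosome 3 (1.25) and chromosome 16 (-1.20). The earliest bin and the first step of chromosome 17 hold a single window of raw level 5.10, described below. Its part in the span and the change was not tested. Without it the median raw level of that step was 2.08, against 1.90 in the next step. Just inside the limit of 8 Mb the bins had a median of -0.48 over 16 chromosomes, and just outside it -0.36 over 15.

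**Figure D2:**
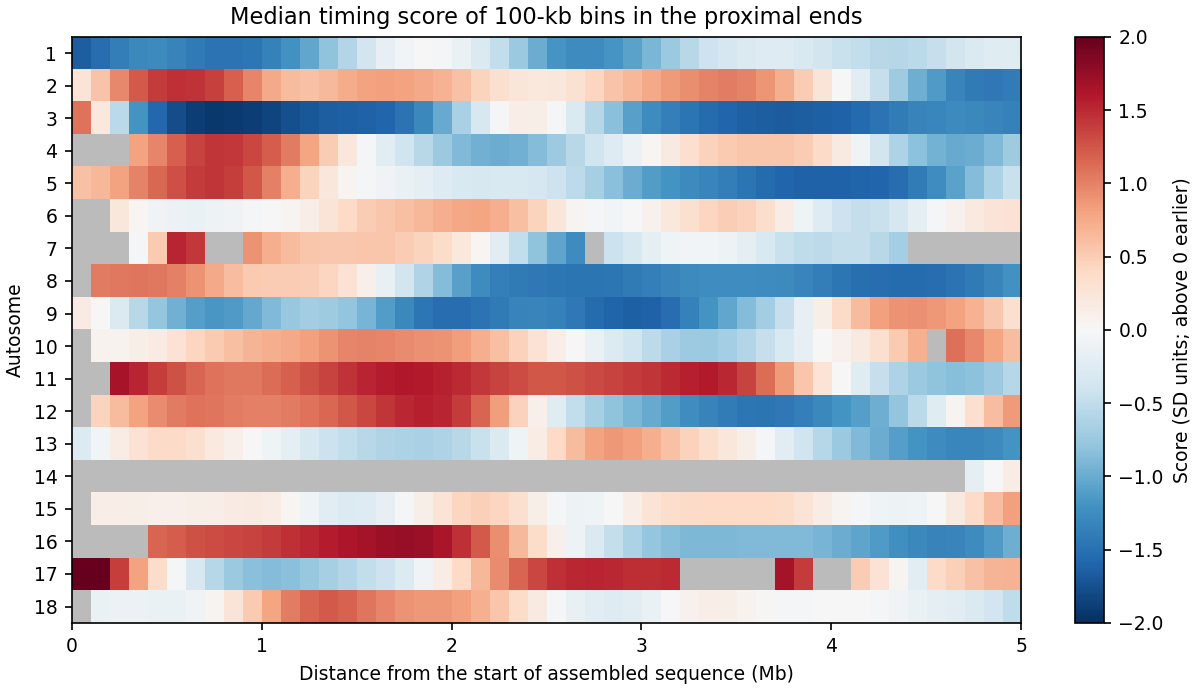
Median timing score over profiles (colour, SD units, red earlier and blue later) of 100-kb bins in the proximal end of each valued autosome, by distance in Mb from the start of assembled sequence at 3 Mb. Grey marks bins without a value, and colours stop at 2 units. Chromosomes 11 and 16 begin with long early stretches, chromosomes 1, 3 and 9 are mostly late, and chromosome 14 is valued in its last bins only.

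Set among all the 5-Mb blocks of its own chromosome, the proximal end was neither the earliest nor the latest block on any of 17 autosomes. It lay among the latest 25% of blocks on 5 autosomes: as block 30 of 32 on chromosome 3, 24 of 26 on chromosome 8, 24 of 25 on chromosome 9, 31 of 39 on chromosome 1 and 20 of 24 on chromosome 13, counted from the earliest. It lay among the earliest 25% on 1, chromosome 11, as block 6 of 24. Of the 767 proximal bins, 19.2% fell among the latest 20% of all autosomal bins and 15.9% among the earliest 20%. The background is 20% in both cases by construction, so the share of late bins in the ends is near that of all autosomal DNA, and the lower share of early bins was not tested. The late bins came mostly from 4 chromosomes, with 37 of 49 bins on chromosome 3, 30 of 49 on chromosome 8, 23 of 50 on chromosome 9 and 18 of 50 on chromosome 1, while 35 of the 48 bins on chromosome 11 and 19 of the 46 on chromosome 16 were early.

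Pooled over chromosomes with 6 profiles, the ends were slightly later than other windows. The median score of proximal windows was -0.05, -0.08, -0.09, 0.00, 0.04 and -0.03 in profiles A to F, against 0.14, 0.13, 0.10, 0.14, 0.15 and 0.06 for the rest. The end lay below the rest in each profile, by 0.09 to 0.21. Mean scores differed less, by -0.09 to 0.00.

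The opposite, telomere-proximal end of the same chromosomes was mostly early. The last 5 Mb had a pooled median score of 0.54 (range over profiles 0.30 to 0.60). On 14 of 18 autosomes it was earlier than the rest of its chromosome in every profile valued there, with profile E giving no value on chromosome 6. It was later on 3 (13, 17 and 18) and mixed on chromosome 3. On 13 of 17 autosomes (without chromosome 14) the proximal difference lay below the distal one in every profile, on 2 (17 and 18) above it, and on chromosomes 2 and 10 the profiles disagreed. The window sets were unlike: distal differences used the valued windows of each profile, proximal ones only windows valued in every profile of the chromosome. On chromosome 15 the proximal end exceeded the rest by 0.07 to 0.35, against 0.96 to 1.17 for the distal end. On chromosome 17 the distal end was late, at -1.26 to -0.86. On chromosome 13 each end was later than the remaining windows, which include the other end. Its distal differences were -0.01, -0.02, -0.03, -0.27, -0.12 and -0.07 in profiles A to F.

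**Figure D3:**
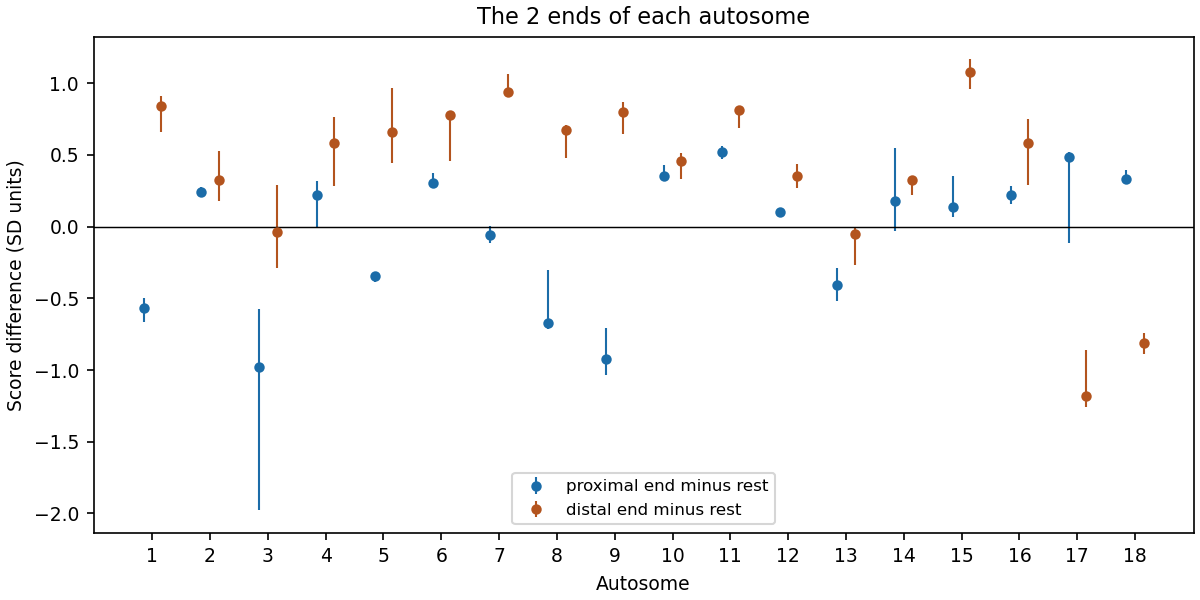
Score of the proximal end (blue) and of the last 5 Mb (orange) minus the score of the rest of the chromosome, in SD units. Proximal values use windows valued in every profile of the chromosome, distal values those valued in each profile. Points are medians over profiles and lines run from the lowest to the highest profile. The distal point lies above the proximal one on most autosomes, and far below it on chromosomes 17 and 18.

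Among the ends valued in all 6 profiles, local differences of at least 1 unit between profiles lay on 3 chromosomes. A 100-kb bin was called variable when its highest and lowest profile lay at least 1 unit apart. This held for 62 of the 767 proximal bins, or 8.08%, against 5.91% of all autosomal bins. Chromosome 3 gave 47 of them, chromosome 8 gave 8 and chromosome 15 gave 7, and none lay in the other ends that entered the count. The count needs all 6 profiles, so the end of chromosome 12 did not enter it. Without chromosome 3 the share was 2.09%, against 4.24% of all autosomal bins without that chromosome, and without profile E it was 1.96%, against 4.96%. The excess over the background thus rests on 1 chromosome and 1 profile. With a range of at least 0.5 the share was 12.5% (96 bins), against 14.1% of all bins. Chromosomes 3, 8 and 15 gave 49, 14 and 9 of these, and the remaining ones lay in other ends. With a range of at least 1.5 the share was 4.95%, against 2.99%.

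On chromosome 3, profile E was displaced over nearly the whole end and beyond it. From 3400001 to 8000000 its score was -2.70, against -1.25, -1.30, -1.40, -1.14 and -1.10 in profiles A, B, C, D and F. The raw copy level was 1.55 in E and 1.79, 1.80, 1.81, 1.80 and 1.80 in A, B, C, D and F. Profile E thus stood at 86.0% of the median of the others, which lay close together. The shape along the end was kept: the peak near Zfhx4, a homeobox and zinc finger gene (5218218 to 5415861), stood above its surroundings in all 6 profiles, with gene scores of 0.32, 0.06, -0.04, 0.13, -1.75 and 0.27 in A to F. Pex2, a gene of peroxisome assembly (5560188 to 5578596), scored -1.89 in E and -0.20 to 0.12 in the others. The region also held Il7, the interleukin 7 gene, with Pkia, Zc2hc1a and 1700008P02Rik. In unsorted cells a lower copy level can come from later replication or from fewer copies of the region, and depth of this kind does not tell them apart.

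On chromosome 8 the profiles parted in 1 gene-free stretch. From 5800001 to 6600000 the scores were -1.51, -1.54, -1.56, -0.94, -1.13 and -0.16 in profiles A to F, and the raw copy levels were 1.74, 1.76, 1.79, 1.83, 1.78 and 1.95. Profile F was the highest on both scales, at 110% of the median raw level of the others, and showed a local maximum there. No coding gene lies in these 800 kb. The 3 profiles A, B and C were nearly alike, and D and E lay between them and F on the score, although the raw level of E lay inside the range of A to C.

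On chromosome 15 the variable stretch lay close to the start. From 3100001 to 3800000 the scores were -0.27, -0.33, 0.18, 0.78, 0.88 and 0.05 in profiles A to F, and the raw levels were 1.93, 1.93, 2.01, 2.08, 2.10 and 1.98. Profiles D and E were the highest and A and B the lowest on both scales. The stretch held Selenop, which encodes the selenium carrier of plasma, Ccdc152, and Ghr, the growth hormone receptor gene (3317755 to 3583352). Ghr scored -0.35, -0.40, 0.15, 0.85, 0.92 and 0.04 in A to F, so the gene whose CG-rich promoter is printed above was early in 2 profiles and later than average in another pair. Beyond this stretch the 6 profiles lay closer but still apart. They ran from -0.24 to 0.13 in the step from 1 to 1.5 Mb and from -0.26 to 0.11 in that from 4 to 4.5 Mb. Wdr70 (7873055 to 8099209) scored 0.88 (0.85 to 0.98).

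**Figure D4:**
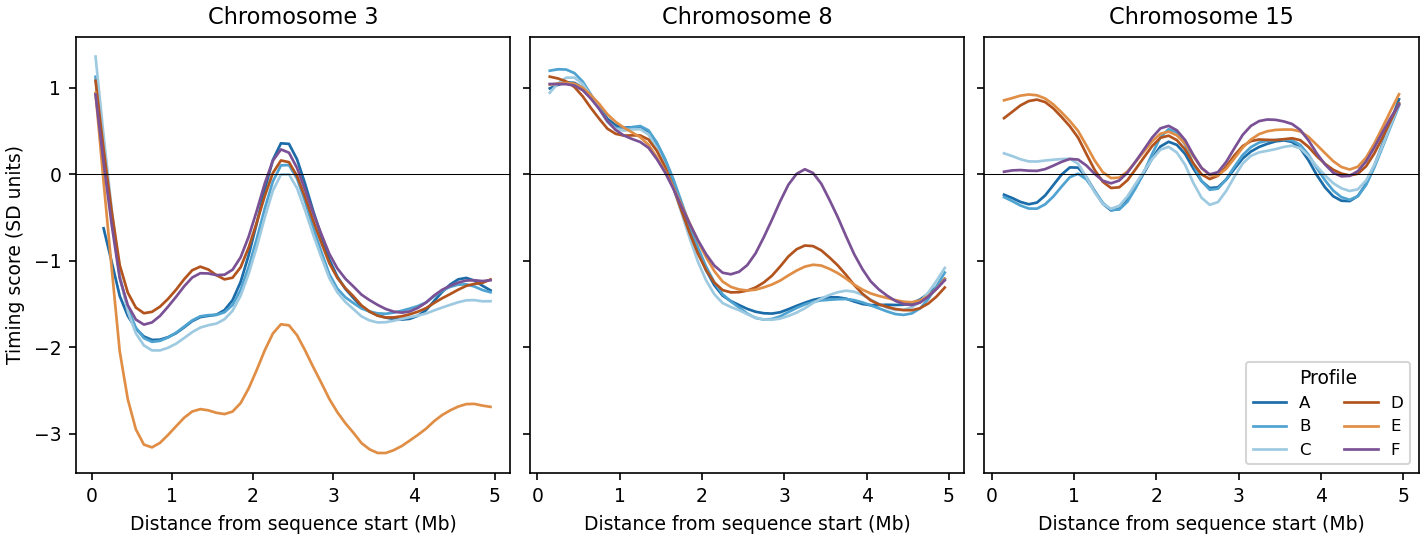
Timing score (SD units) of 100-kb bins along the proximal ends of chromosomes 3, 8 and 15 by distance in Mb from the start of assembled sequence, with 1 line for each profile. Profile E runs below the others over nearly all of chromosome 3, profile F rises above the others past the middle of chromosome 8, and profiles D and E lie above the others at the start of chromosome 15.

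On chromosome 12, profile F stood more than 1 unit above A, B and C in every step of 500 kb along the end. In the first step it scored 1.96, against 0.61, 0.48 and 0.78 in A, B and C, and in the step from 3 to 3.5 Mb it scored 0.06, against -1.52, -1.45 and -0.9996. The raw copy level of that end was 2.21 in F, against 1.97, 1.97 and 2.02, and the rest of the chromosome was raised in F as well, at 2.19 against 1.95 to 2.01.

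The bins valued in all 6 profiles, which leave out chromosome 12, ran in a like order in every profile. Across the 767 proximal bins, Pearson's r between profiles had a median of 0.972 over 15 pairs (0.916 to 0.995), and 0.979 without chromosome 3, against 0.951 over all other autosomal bins. Bins are neighbours on the chromosome and are not independent, so these are descriptions. Local maxima of the score with a prominence of at least 0.25 numbered 27 to 31 in the ends, which is 3.28% to 3.61% of all autosomal maxima of a profile. Of these, 17 were found in all 6 profiles within 100 kb, without a background, as the matching share over all autosomes is not given here. They included maxima at Hmox2 (1.74), at Cabp7 on chromosome 11 (1.61), at Oscar, an activating receptor gene of myeloid cells and osteoclasts on chromosome 7 (1.55), at Sytl3 on chromosome 17 (1.83), at Ankib1 (1.43), at Map3k8 (1.23) and at Klf6 on chromosome 13 (0.87). The latest shared maximum was that near Aasdhppt on chromosome 9, at -0.69 (-0.75 to -0.61).

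The ends held 868 coding genes, 9.14 per Mb against 8.53 per Mb elsewhere. Without chromosome 19, whose end alone held 183, the ends held 7.61 per Mb, but the 8.53 per Mb still includes the rest of that chromosome. With Gm and LOC genes left out and chromosome 19 kept, it was 8.08 per Mb in the ends and 8.13 per Mb elsewhere. Of the 868 genes, 571 were scored in all 6 profiles. Above 0 in every profile were 388, or 68.0%, against 76.2% of all scored autosomal genes, and below 0 in every profile were 109, or 19.1%, against 15.5%. The median score was 0.56, against 0.81 for all autosomal genes. Across 16 chromosomes, gene density of the end and its mean score had Pearson's r of 0.43 and a Spearman rank correlation of 0.51, given as a description. The points share each chromosome's windows and the same 6 profiles.

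The vomeronasal receptor genes of the ends were late, and the olfactory receptor genes lay just below average. Vomeronasal receptor genes, which encode pheromone receptors, numbered 23 in the ends, most of them on chromosome 7. Of the 18 scored, 16 were below 0 in every profile and none above (19.1% of all scored genes of the ends were below), with a median of -0.68, against -0.48 for the family over all autosomes. Vmn1r62 (chromosome 7, 5674604 to 5676599) scored -1.58, -1.54, -1.41, -1.23, -1.15 and -1.23 in A to F. Of 10 olfactory receptor genes, 8 were below 0 in every profile, and Olfr161 and Olfr15 on chromosome 16 were above. The median of the 10 was -0.12, against -0.70 for the family over all autosomes. Of 23 Zfp genes, 11 were above and 5 below, with a median of -0.04 in the ends, against 0.80 for all Zfp genes. Most of these also lay on chromosome 7.

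The 4 ribosomal protein genes and the 2 genes of a myeloid list that lay in the ends were above 0 in every profile, as were 68.0% of the scored genes of the ends. The ribosomal protein genes Rps20 (1.43), Rps9 (1.33), Rpl28 (0.49) and Rpl37 (0.47) lay on both sides of the median of the genes of the ends (0.56). The myeloid list held 24 genes, of which Lyn and Klf6 lay in the ends. Klf6, a zinc finger transcription factor gene (chromosome 13, 5861489 to 5870393), scored 0.86 (0.69 to 0.98). It lay in the earliest bin of an end that averaged later than the rest of its chromosome. Of the 6 genes over 500 kb, Frmd4a (0.61), Syne1 (0.55) and Celf2 (0.18) were above 0 in every profile and Cdk14 (-0.32), Rbfox1 (-0.88) and Zfp804b (-1.62) below.

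A small share of the proximal windows could not be measured. Windows without a score in at least 1 profile made up 3.34% of the ends (261 of 7826 outside chromosome 19), against a background of 2.96%. Those without a score in every profile made up 3.19%, against 0.930% of the rest, and chromosome 14 gave part of these. Without that chromosome, 2.33% of proximal windows (180) lacked a score in at least 1 profile, against 3.01% of the rest. The share without a score in every profile was not taken without chromosome 14. The 2.33% therefore does not account for the excess of 3.19% over 0.930%. On chromosome 7, 86.5% of the windows were valued. The first coding genes of chromosomes 4, 7 and 14 (Vmn1r2, AU018091 and Gm2888) had no score. Windows wider than 20 kb made up 2.02% of the ends (167), against 0.579% of the rest.

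Some single windows of the ends had a very high copy level. A median raw level of at least 2.5 was found in 14 of 7826 proximal windows, or 0.179%, against 0.0655% of all autosomal windows. Of the 14, 7 were valued in all 6 profiles and the others in 1 to 5. They lay on 8 chromosomes, and 8 of the 14 lay in the first 0.5 Mb of an end. The highest was on chromosome 17, from 3075565 to 3086989 just before Scaf8, with raw levels of 5.10, 4.87, 5.05, 5.11, 5.18 and 5.28 in profiles A to F. The next 10 windows had a median of 2.16, so this window stood far above its neighbours in all 6 profiles. The score of those 10 windows was 2.22, and the score ran smoothly down from the first window.

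**Figure D5:**
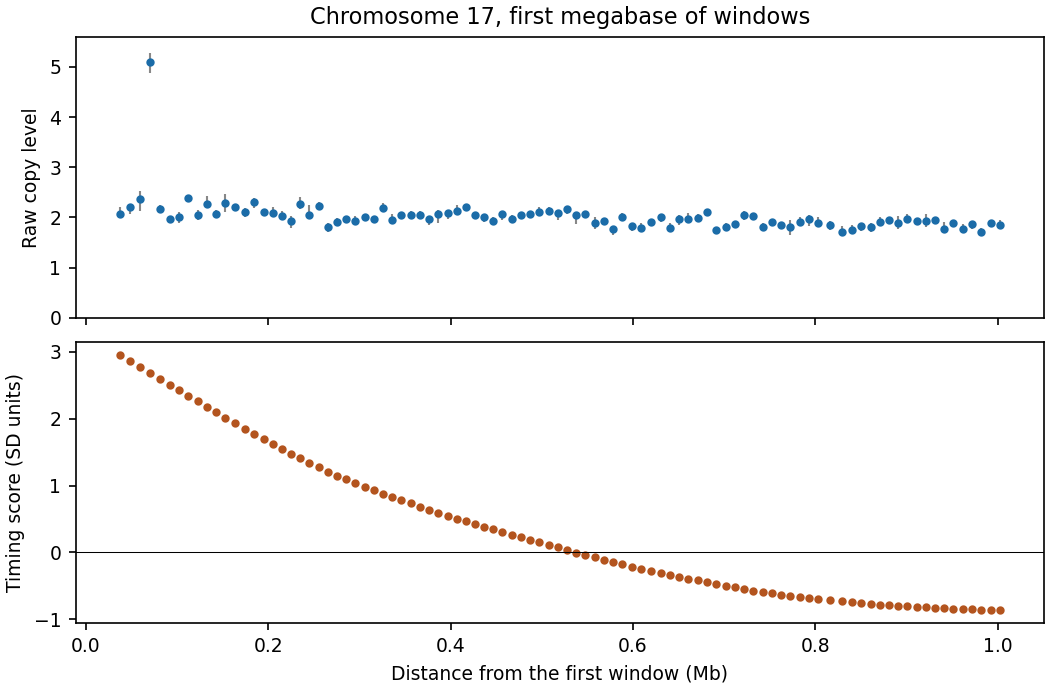
Raw copy level (upper panel, median of 6 profiles with a line from the lowest to the highest) and median timing score (lower panel, SD units) of the windows in the first 1 Mb of chromosome 17, by distance from the first window. A single window stands near a raw level of 5.10 while the others lie near 2, and the score runs without a break past it.

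This window lies beside the gene with the highest score among those named. Scaf8, a gene of an RNA-binding protein that contacts RNA polymerase II (3114972 to 3198859), scored 2.16, 2.15, 2.35, 2.04, 1.85 and 1.84 in A to F. The first 100-kb bin of chromosome 17 had a score of 2.77, while its raw level rescaled to the same units stood at 5.25, or 2.48 above the score. Without the highest window the raw level of the first 0.5 Mb was 2.08 in place of 2.15. The deposited scores could not be recomputed without it, so its part in the score of Scaf8 was not tested. At the other chromosome starts score and rescaled raw level lay closer. The median absolute difference over 16 first bins was 0.233, against 0.203 in other proximal bins and 0.180 in other autosomal bins, and chromosome 2 was the next largest, with a score 1.34 above its rescaled raw level.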

How the data were processed

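Whole-genome sequencing libraries were DNBSEQ paired-end libraries, per the labels' protocols. Per the submitters' processing notes, the build was mm10 and the tools included Picard 2.23.9. The aligner, GC correction and smoothing are not given in the sources used here. TIGER, which infers timing from read depth, is named in the title of the series. The authors deposited 2 tables without headers: one holds a signal, the normalised copy level of each window, and the other a smoothed score, which in each deposited column averages 0 with an SD of 1 across autosomes. All 6 value columns were used. None could be tied to a sample, so the planned limma comparison of genotypes was not run. The depth reached is unknown; the labels give a target of 30-fold. Means of the proximal ends and their rest were taken over windows valued in every profile of the chromosome. Distal differences used the valued windows of each profile on its own. Bins of 100 kb needed at least 3 windows in each profile. Coding genes came from RefSeq on GRCm38.p6, placed at their midpoint and scored by the nearest window within 50 kb. Genes were named as the nearest to the earliest and latest bin that overlaps a gene, the first of each end, and up to 3 in variable bins. Ribosomal protein, long and list genes, and genes at shared maxima, were named beyond that rule. The windows, lists and rules were chosen with earlier results of these data known. GC content of windows was not analysed here. Scripts ran in Python 3.11.15 with pandas 2.3.3, numpy 2.4.6 and matplotlib 3.10.9, and were checked on simulated data.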

Additional observations from a re-analysis of the deposited data

How the results depend on the processing

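The classes of later and earlier ends held in all 14 chromosomes without the first 500 kb of windows and without windows of raw level 2.5 or more. They also held on the rescaled raw level, which repeats the raw-level classes given above. Leaving out a profile could not undo a class, because a class needs the same sign in every profile. With a limit of 6 Mb, 4 of the 6 later and 7 of the 8 earlier classes remained, and chromosome 5 turned earlier (0.235). Later and earlier ends numbered 4 and 10 at 6 Mb, 9 and 8 at 10 Mb, and 9 and 7 at 13 Mb, so which class is larger depends on the limit. Chromosome 14 gave -0.587 at 10 Mb and -0.797 at 13 Mb. At 10 Mb chromosome 2 turned later (-0.0554). At 13 Mb the median over profiles fell below 0 on chromosomes 2 (-0.0238) and 6 (-0.178), and 1 of them was later in every profile. Over medians of windows chromosome 16 turned later (-0.322), and 5 earlier ends remained. With each profile over its own windows chromosome 12 gave -0.0037. Against windows below 40 Mb the median fell below 0 on chromosomes 2 (-0.0093), 12 (-0.0466) and 16 (-0.465), and 1 of them was later in every profile. The median difference over 17 chromosomes was 0.178, and it became 0.287 at 6 Mb, -0.0554 at 10 Mb, -0.178 at 13 Mb, 0.0062 with medians, 0.0838 without the first 500 kb, 0.0627 against all other autosomes and -0.0093 against windows below 40 Mb, so it has no settled sign. Chromosome 14 gave no value at 6 Mb or without the first 500 kb. Variable bins made up 12.5% at a range of 0.5 and 4.95% at 1.5, against 14.1% and 2.99% of all bins, 2.09% without chromosome 3, and 1.96% to 8.08% with 1 profile left out. The raw level of the first step of chromosome 17 was 2.08 without its highest window. The limit of 40 Mb and the removal of high windows were added after the data were seen. The causes were not tested. No paired analysis was possible because no value column is tied to a numbered sample.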
